A study of Gallus gallus with 9 samples.

Results

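CSF1R, PTPRC, C1QA, C1QB, C1QC, CD74 and SPI1 are genes by which tissue-resident macrophages are commonly recognised, and their expression was followed along the cochlea of the chick. The 7 genes were found by their symbols among 24880 genes of the deposited expression table, each on 1 row. All 7 were among the 13045 genes with a mean of at least 1 FPKM (Cuffdiff's fragment number scaled to transcript length and to library size) in at least 1 region. They were chosen by name, with earlier results of these data already known. The libraries came from the apex, the middle and the base of the basilar papilla, the avian hearing organ, of untreated chickens at post-hatch day 1. No altered allele or strain is named in the sources used here, and the groups were defined by place along the organ alone. There were 3 biological replicates per region and 9 libraries, and each replicate pooled RNA from 4 chickens (8 cochleas), so that no value belongs to a single bird. Each piece was whole dissected tissue, which holds hair cells, supporting cells, nerve, vessels and blood as well as macrophages.

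Macrophages are phagocytes that are known to reside in and beneath the sensory epithelium of the vertebrate inner ear, where they take up dying cells and debris. CSF1R is a receptor tyrosine kinase on which most resident macrophages depend for survival, and its ligands are CSF1 and IL34. SPI1 encodes PU.1, a transcription factor that drives myeloid development, and PTPRC encodes CD45, a phosphatase on the surface of nearly all white blood cells. C1QA, C1QB and C1QC encode the chains of C1q, which starts the classical complement pathway and which macrophages and microglia secrete. CD74 is the invariant chain that accompanies MHC class II molecules in antigen-presenting cells. These roles are known mainly from mammals.

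The 7 genes were expressed in every library and kept the same order of level in all 9, with CD74 highest, followed by CSF1R, C1QC, C1QA, C1QB, SPI1 and PTPRC. Lower levels in the apex than in the base were found for CSF1R and C1QC, while PTPRC and CD74 differed between replicate numbers. The calls other than that of CSF1R were lost in some fits that left out libraries. CSF1R averaged 35.5 ± 1.43 FPKM in the apex, 42.6 ± 1.30 FPKM in the middle and 52.9 ± 4.0 FPKM in the base (SD, n = 3 each). C1QC averaged 28.4 ± 0.994 FPKM in the apex, 32.5 ± 6.23 FPKM in the middle and 39.8 ± 2.90 FPKM in the base (SD, n = 3 each). FPKM are relative to the whole library. In dissected tissue, fewer macrophages, less RNA of a gene per macrophage and a larger share of RNA from other cells cannot be told apart.

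**Figure D1:**
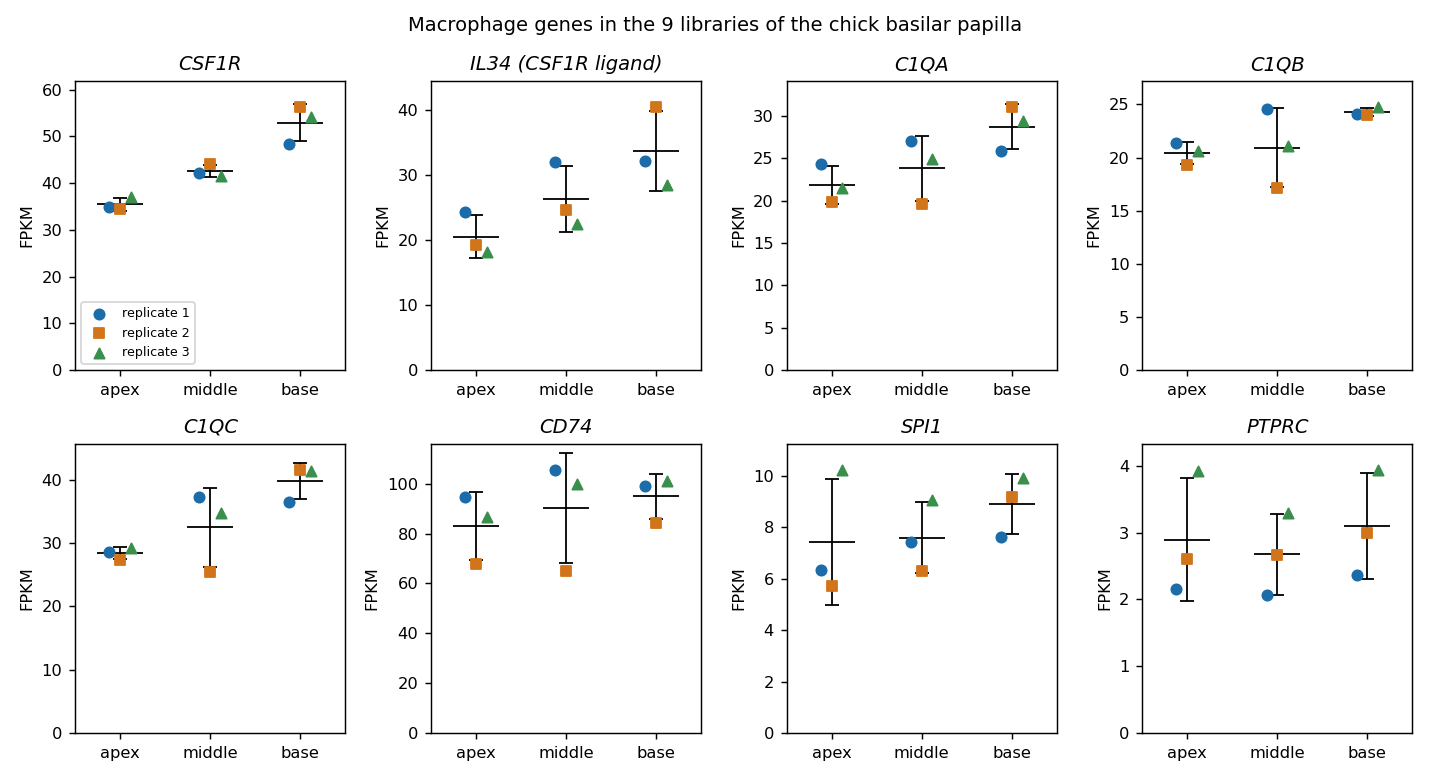
FPKM (vertical axes, starting at 0) of the 7 macrophage genes and of IL34 in the apex, middle and base, with 1 symbol per replicate number and with black bars for the mean and SD of 3 libraries. For CSF1R the 3 regions do not overlap, whereas PTPRC is highest in replicate 3 and lowest in replicate 1 in each region.

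CSF1R (ENSGALG00000005725, chromosome 13, 13275947 to 13293798 in galGal5) was the gene with the clearest difference between regions. Its level was 34.9, 34.4 and 37.1 FPKM in apex replicates 1, 2 and 3, against 42.2, 44.0 and 41.5 FPKM in the middle and 48.5, 56.2 and 54.0 FPKM in the base. Every apex library was below every middle library, and every middle library was below every base library. On the scale of log2(FPKM + 1), CSF1R in the apex was below the base by a difference of −0.56 (SE 0.07, 95% confidence interval −0.72 to −0.40, limma adjusted p = 0.0016). The ratio of the means was 0.670, a level 33.0% lower in the apex. This is a 1.49-fold difference, just under the 1.5-fold that the criterion for a differentially expressed gene (DEG) required beside an adjusted p under 0.05.

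The middle was also below the base in CSF1R, with a log2 difference of −0.30 and a ratio of 0.805 (limma adjusted p = 0.0336). That call was lost in 7 of the 9 fits that left out 1 library, with limma adjusted p from 0.0519 to 0.128, and it was kept only without middle replicate 2 or without apex replicate 2. It was also lost when the 6 middle and base libraries were fitted alone (limma adjusted p = 0.0794), and without any replicate number (0.103 to 0.278). In the 9 fits that left out 1 library the log2 difference stayed between −0.36 and −0.26. Adjustment was over all genes tested, of which 71 to 692 were DEGs in those fits, against 573. Without base replicate 1 the unadjusted limma p of CSF1R was 0.00071, against 0.0019 with all libraries. With the replicate number as a block the limma adjusted p was 0.0097. Between apex and middle the log2 difference was −0.26 and did not pass (limma adjusted p = 0.261), although the libraries of these regions did not overlap. The apex to base difference, in contrast, passed in each of those 9 fits, with limma adjusted p from 0.00221 to 0.00881.

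The order of the regions was tested for each gene by the Jonckheere-Terpstra statistic in a two-sided exact permutation test, which went through the 1680 ways to assign the libraries to regions. CSF1R fell along the order from base to apex with p = 0.00119, the smallest that this exact test can give, and an adjusted p of 0.0262 over all genes tested. Of the 7 genes 1 passed this exact test at an adjusted p under 0.05, against 8.68% of all genes. When the libraries were exchanged only within replicate numbers, the exact test gave p = 0.00926, again the smallest possible, and the adjusted p was 0.0516. In that form 0 of the 7 genes and 0% of all genes passed.

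IL34, a ligand of CSF1R, was also lower in the apex (ENSGALG00000028466, chromosome 11, 1776707 to 1780905). Its level was 24.3, 19.2 and 18.1 FPKM in apex replicates 1, 2 and 3, against 32.1, 24.6 and 22.4 FPKM in the middle and 32.1, 40.4 and 28.4 FPKM in the base. All apex libraries were below all base libraries, while the middle overlapped both ends. The log2 difference between apex and base was −0.68 (SE 0.17, limma adjusted p = 0.023) at a ratio of 0.610, so that IL34 was a DEG. The exact order test gave p = 0.00952 and an adjusted p of 0.0642. The call was lost without base replicate 1, base replicate 2, apex replicate 2 or apex replicate 3 (limma adjusted p = 0.0644, 0.0776, 0.067 and 0.0833). It was also lost without replicate 1, 2 or 3 of all regions (limma adjusted p = 0.057, 0.154 and 0.0912). The ratio of CSF1R to IL34 lay between 1.32 and 2.05 in the 9 libraries. CSF1, the other ligand, was not analysed here.

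The C1q genes lie together on chromosome 21 within 7.755 kb, in the order C1QB, C1QC, C1QA, with gaps of 1.328 kb and 0.688 kb between them. None of the 7 genes overlapped another gene of the table. For C1QC (ENSGALG00000029669, chromosome 21, 6086545 to 6088226) the values were 28.6, 27.3 and 29.3 FPKM in the apex, 37.3, 25.5 and 34.7 FPKM in the middle and 36.5, 41.6 and 41.5 FPKM in the base. The apex libraries stayed below the base libraries, and the middle libraries spread over most of the range, with middle replicate 2 the lowest of all 9. C1QC in the apex was below the base by a log2 difference of −0.47 (SE 0.13, limma adjusted p = 0.032), at a ratio of 0.714. The call was lost without any 1 of the 6 apex and base libraries. Without apex replicates 1, 2 and 3 in turn, limma adjusted p was 0.0756, 0.0864 and 0.0766, and without base replicates 1, 2 and 3 it was 0.057, 0.0993 and 0.0848. The call was also lost without replicate 1 or replicate 3 of all regions (limma adjusted p = 0.110 and 0.201). C1QC did not pass the exact order test (adjusted p = 0.145). Without the replicate block it did not pass the test for any difference among regions (limma adjusted p = 0.0799).

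For C1QA (ENSGALG00000021569, chromosome 21, 6088915 to 6090874) the values were 24.3, 19.8 and 21.5 FPKM in the apex, 27.0, 19.6 and 24.9 FPKM in the middle and 25.8, 31.0 and 29.4 FPKM in the base. Apex and base did not overlap, and middle replicate 2 was again the lowest library. The log2 difference between apex and base was −0.38 (SE 0.13), which missed the threshold without the replicate number in the fit (limma adjusted p = 0.066) and passed with the replicate number as a block (limma adjusted p = 0.0444). It also passed without middle replicate 2 (limma adjusted p = 0.0246) and in the fit of the 6 apex and base libraries (limma adjusted p = 0.0371).

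C1QB (ENSGALG00000004771, chromosome 21, 6083120 to 6085216) had 21.4, 19.3 and 20.7 FPKM in the apex, 24.5, 17.1 and 21.1 FPKM in the middle and 24.1, 24.0 and 24.7 FPKM in the base. The base libraries were nearly equal, and all of them were above the apex libraries. Even so, the log2 difference of −0.24 (SE 0.11) did not pass (limma adjusted p = 0.172), and it passed without middle replicate 2 (limma adjusted p = 0.0459) and in the fit of the 6 apex and base libraries (limma adjusted p = 0.0376). None of the C1q genes passed between middle and base, with limma adjusted p from 0.180 to 0.252, or between apex and middle, with limma adjusted p from 0.819 to 0.995.

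The C1q chains moved closely together over the 9 libraries. Pearson's r of log2(FPKM + 1) was 0.952 between C1QA and C1QC, 0.912 between C1QB and C1QC and 0.905 between C1QA and C1QB. With region means subtracted, r was 0.894, 0.903 and 0.848 for the same pairs. The ratio of C1QC to C1QB was 1.34 to 1.42 in the apex, 1.49 to 1.65 in the middle and 1.51 to 1.73 in the base, so that the apex libraries lay below the others. The ratio of C1QA to C1QB overlapped between regions, at 1.03 to 1.14 in the apex, 1.1 to 1.18 in the middle and 1.07 to 1.29 in the base. Neither ratio was tested. These r, like all given here, describe 9 libraries that may share pools of chickens and that share their scaling, and they carry no p-value.

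CD74 (ENSGALG00000004594, chromosome 13, 13146841 to 13150694) was the most abundant of the 7 and lay 125.3 kb from CSF1R. It had 94.6, 67.9 and 86.7 FPKM in the apex, 105 (middle replicate 1), 64.9 and 100 FPKM in the middle and 99.2, 84.4 and 101 FPKM in the base. The regions overlapped, and replicate 2 was the lowest in each of them. Between apex and base the log2 difference was −0.20 (SE 0.19, limma adjusted p = 0.509). CD74 instead differed between replicate numbers (limma moderated F, adjusted p = 0.0215). That call was lost without middle replicate 3, apex replicate 1 or apex replicate 2 (limma adjusted p = 0.0593, 0.0667 and 0.0793). It was also lost without replicate 1, 2 or 3 of all regions (limma adjusted p = 0.0557, 0.404 and 0.0696). Over the libraries CD74 followed C1QB most closely among the 7 genes, with an r of 0.826, whereas its r with CSF1R was 0.25.

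PTPRC (ENSGALG00000002192, chromosome 8, 2036933 to 2110380) was the least abundant. It had 2.16, 2.60 and 3.93 FPKM in the apex, 2.07, 2.67 and 3.29 FPKM in the middle and 2.36, 2.99 and 3.94 FPKM in the base. The regions overlapped almost wholly, and within each region replicate 1 was lowest and replicate 3 highest. The log2 difference between apex and base was −0.08 (SE 0.21, 95% confidence interval −0.56 to 0.40, limma adjusted p = 0.828). Replicate numbers differed (limma moderated F, adjusted p = 0.019). That call was lost without base replicate 3, middle replicate 1, middle replicate 3, apex replicate 1 or apex replicate 3, with limma adjusted p from 0.0548 to 0.0684. It was also lost without replicate 1 or replicate 3 of all regions (limma adjusted p = 0.131 and 0.258).

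SPI1 (ENSGALG00000008127, chromosome 5, 22949194 to 22970222) had 6.34, 5.72 and 10.2 FPKM in the apex, 7.44, 6.29 and 9.06 FPKM in the middle and 7.62, 9.18 and 9.93 FPKM in the base. Its highest library was apex replicate 3, and replicate 3 was the highest in each region. The log2 difference between apex and base was −0.26 (SE 0.20, limma adjusted p = 0.397), and the test of replicate number gave a limma adjusted p of 0.0657. Without base replicate 2 the test of replicate number passed (limma adjusted p = 0.018). SPI1 followed PTPRC with an r of 0.775, and of 0.793 after region means were subtracted.

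**Figure D2:**
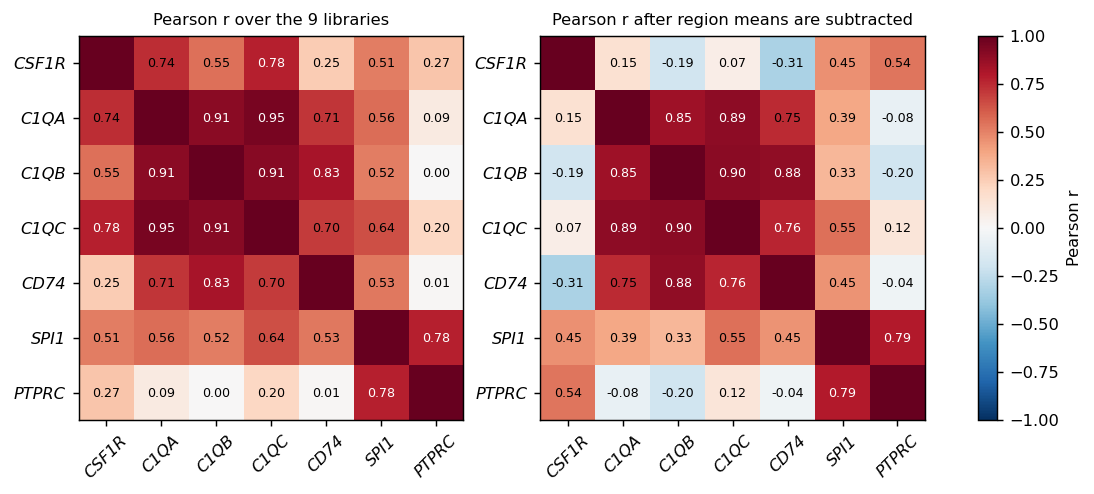
Pearson's r of log2(FPKM + 1) between each pair of the 7 genes over 9 libraries (left) and with region means subtracted (right), on a colour scale from −1 to 1. The C1q genes and CD74 form a block of high r in both panels, and PTPRC and SPI1 form another, while CSF1R pairs closely with C1QA and C1QC only on the left.

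CSF1R followed C1QC with an r of 0.781 and C1QA with an r of 0.736 over the 9 libraries. Once region means were subtracted these were 0.065 and 0.154. Over all 21 pairs of the 7 genes r ranged from 0.0035 to 0.952 with a median of 0.56, and after subtraction from −0.314 to 0.903 with a median of 0.453, when 5 pairs were negative. The total variation of each gene in log2(FPKM + 1) was then divided into shares. Region held 93.4% of it for CSF1R, 64.5% for C1QC, 55.8% for C1QA and 44.0% for C1QB, and 19.5% for SPI1, 11.7% for CD74 and 6.67% for PTPRC. Replicate number held 90.7% for PTPRC, 76.0% for CD74 and 58.9% for SPI1, and 2.45% for CSF1R. The medians of the 7 genes, 44.0% for region and 29.3% for replicate number, were close to those of all genes tested, 41.5% and 29.6%.

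**Figure D3:**
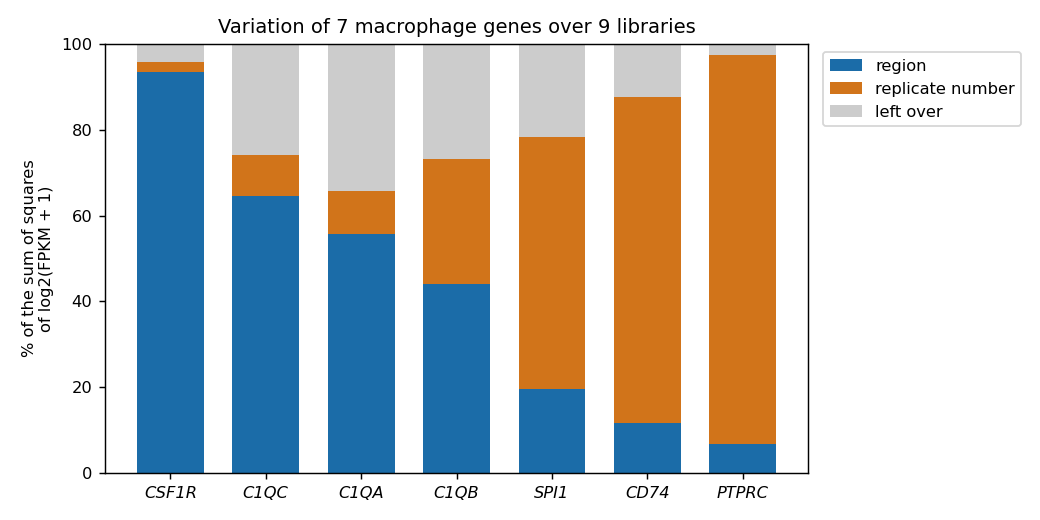
Shares of the sum of squares of log2(FPKM + 1) over 9 libraries (vertical axis, %) that lay between regions, between replicate numbers and in neither, for each of the 7 genes. The share between regions is 93.4% for CSF1R at the left and 6.67% for PTPRC at the right.

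Genes listed for another blood cell also differed between replicate numbers, although the cells that expressed them in the pieces were not determined. The heterophil list, for the granulocytes of birds, had 4 measured genes (CATHL1, CATHL2, CSF3R and LYZ), all with a limma adjusted p under 0.05 for replicate number, which 18.7% of all genes had. Its summed level was 129, 88.0 and 465.5 FPKM in apex replicates 1, 2 and 3, 68.7, 237 and 566 FPKM in the middle and 47.3, 104 and 205 FPKM in the base. Replicate 3 was the highest in each region, as it was for PTPRC and SPI1, genes that heterophils are also known to express. This pattern was not particular to heterophil genes. The summed T cell, thrombocyte, erythrocyte, hair cell and supporting cell lists were also highest in replicate 3 of each region. The summed neuron markers were highest in replicate 2, where CD74 was lowest, with 109, 1315 and 129 FPKM in apex replicates 1, 2 and 3, 177, 2722 and 537 FPKM in the middle and 113, 617 and 130 FPKM in the base. The summed antigen presentation genes without CD74 were, like CD74, lowest in replicate 2 of each region, at 346, 334 and 370 FPKM in apex, middle and base. The part of any of these lists in the levels of the 7 genes was not tested. Replicate 3 was also the deepest in each region, at 1.18 to 1.61 times the fragments of base replicate 1 by an estimate from the steps between low values.

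Across the 7 genes, 2 had a limma adjusted p under 0.05 between apex and base, both lower in the apex, where 22.1% of all genes passed and 11.3% were lower. With the replicate block 3 of the 7 passed, all lower in the apex, where 36.6% of all genes passed, 18.8% lower and 17.8% higher. Between middle and base 1 of the 7 passed, lower in the middle, against 8.4% of all genes, 4.28% of them lower, and between apex and middle 0 of the 7, against 0.0613%. With the 1.5-fold criterion limma called 0 of the 7 as DEGs in any of the 3 comparisons, where it called 11.8%, 4.39% and 0.0613% of all genes for apex versus base, middle versus base and apex versus middle. At an unadjusted p under 0.05 there were 3, 2 and 1 of the 7, against 35.5%, 26.7% and 9.01%. In the test for any difference among regions 1 of the 7 passed, CSF1R (limma adjusted p = 0.0046), against 16.1%. With the block 2 passed, against 34.4%, C1QC being added. For replicate number 2 of the 7 passed, against 18.7%.

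All apex libraries were below all base libraries in 4 of the 7 genes (CSF1R and the C1q genes), which held for 22% of all genes. For middle below base and for apex below middle this held in 1 of the 7, CSF1R, against 16.6% and 6.07%. The apex was lower than the base in all 3 same-numbered pairs in 6 of the 7, against 34.1%, the exception being SPI1 in replicate 3. Among these 6, PTPRC was nearly equal in replicate 3, at 3.93 FPKM in the apex and 3.94 FPKM in the base. The middle was below the base in all 3 pairs in 3 of the 7, against 29%, and the apex below the middle in 1, against 23.3%. Fold changes of apex versus base were negative in 7 of 7 genes, against 51.1% of all genes, those of middle versus base in 7 of 7, against 50.9%, and those of apex versus middle in 6 of 7, against 53.5%. The median log2 fold change of the 7 genes was −0.26 for apex versus base, −0.22 for middle versus base and −0.10 for apex versus middle. Over all genes tested the medians lay between −0.00985 and −0.00479. The comparisons share libraries and are not independent of each other. Neither are the 7 genes, since the C1q genes moved closely together and CD74 followed C1QB, so that these counts are not counts of independent genes.

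**Figure D4:**
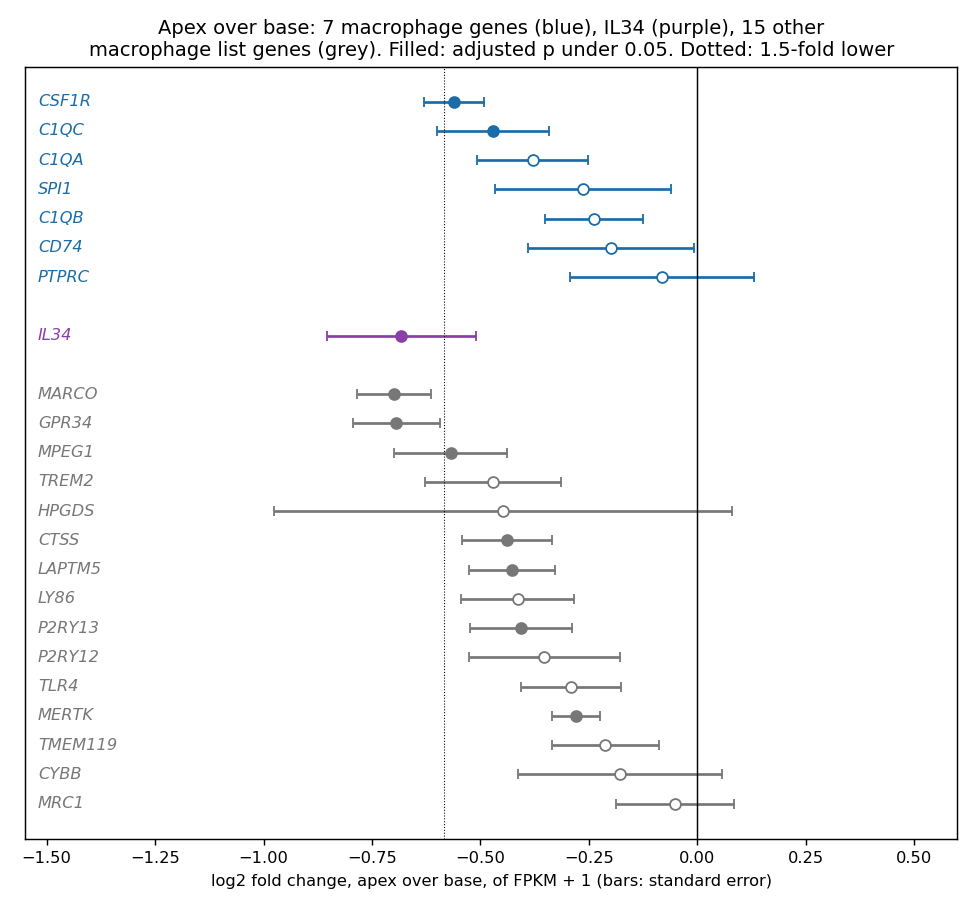
Log2 fold change of FPKM + 1 of the apex over the base (horizontal axis, bars are standard errors) for the 7 genes, IL34 and 15 other genes of the macrophage and microglia list, filled where the limma adjusted p was under 0.05, with a dotted line at 1.5-fold lower. MARCO, GPR34 and IL34 lie beyond the dotted line, and MPEG1 and CSF1R lie just inside it. The DEG criterion used the ratio of mean FPKM and not this scale, so that MPEG1 was a DEG although inside the line.

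The wider list of macrophage and microglia markers held 34 symbols, of which 25 were matched and 18 were not among the 7 genes. Of these 18, 16 were expressed at the level required for testing, 7 were lower in apex than base, and 0 were higher, against 11.3% and 10.7% of all genes, and the median log2 fold change was −0.41. The DEGs among them were MARCO, GPR34 and MPEG1. The scavenger receptor MARCO averaged 9.04 ± 0.586 FPKM in the apex, 10.1 ± 0.232 FPKM in the middle and 15.3 ± 1.53 FPKM in the base (SD, n = 3 each), with a log2 difference between apex and base of −0.70 (limma adjusted p = 0.0016). The microglial receptor gene GPR34 averaged 5.06, 5.48 and 8.82 FPKM in apex, middle and base, with a log2 difference of −0.69 (limma adjusted p = 0.0026), and the pore-forming phagocyte gene MPEG1 averaged 5.45, 6.65 and 8.61 FPKM, with −0.57 (limma adjusted p = 0.016).

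The other 4 that were lower in the apex, named after their values were seen, were the lysosomal protease CTSS, the phagocytic receptor MERTK, LAPTM5 and the purinergic receptor P2RY13, with log2 differences of −0.44, −0.28, −0.43 and −0.41. The list's most abundant genes beside CD74 were LY86, with 70.0, 81.8 and 93.9 FPKM in apex, middle and base (limma adjusted p = 0.0516 between apex and base, and 0.0174 with the replicate block, which made the count 8 of 16, against 18.8% of all genes), and HPGDS, with 48.2, 78.6 and 59.2 FPKM, which did not pass between regions and differed between replicate numbers (limma adjusted p = 0.011). Between middle and base 2 of the 16 were lower, MARCO and GPR34, against 4.28% of all genes, and between apex and middle 0 were. The count of 2 was 0 without base replicate 2 or without middle replicate 3. The count of 7 between apex and base was 4 to 9 when 1 library was left out, with 4 without base replicate 2, without apex replicate 1 or without apex replicate 2. It was 2, 3 and 1 without replicate 1, replicate 2 and replicate 3 of all regions. DEGs among all genes tested also fell in these fits, from 1541 to 623, 1245 and 925. They were counted with the 1.5-fold criterion, which the list count did not use. CX3CR1, a defining marker of mammalian microglia, averaged 0.253, 0.157 and 0.158 FPKM in apex, middle and base, below the level required for testing.

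The summed level of the 25 matched genes, the 7 included, was 483 to 499 FPKM in the apex, 550 to 576 FPKM in the middle and 590 to 676 FPKM in the base, without overlap between regions. HPGDS alone held 121 FPKM in middle replicate 2, against 34.0, 88.8 and 21.9 FPKM in apex replicates 1, 2 and 3. With HPGDS taken out, middle replicate 2 would lie below apex replicates 1 and 3, so that apex and middle would overlap. Without the 7 genes the sum was 271 to 322 FPKM in the apex, 329 to 370 FPKM in the middle and 346 to 427 FPKM in the base. Middle and base thus overlapped in this sum, and with HPGDS taken out apex and middle would overlap too. Hair cell markers ran the other way, with summed levels of 310 to 438 FPKM in the apex, 170 to 242 FPKM in the middle and 57.6 to 116 FPKM in the base, and 8 of 9 tested markers were higher in apex than base, against 10.7% of all genes. Summed supporting cell markers had 2463 to 3419 FPKM in the apex, 2125 to 4071 FPKM in the middle and 949 to 1693 FPKM in the base, with 5 of 7 higher in apex than base, and Schwann cell markers had 1705 to 2459, 1601 to 2641 and 934 to 1165 FPKM, with 3 of 4 higher, both against 10.7% of all genes. Fibroblast markers averaged 3498, 3655 and 4368 FPKM in apex, middle and base, with 1 of 4 lower and 1 higher in apex than base, against 11.3% and 10.7% of all genes. FPKM are relative to the whole library, and the part of these cells' RNA in the lower macrophage values was not tested.

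Complement genes other than C1q included 11 that were tested, of which 4 were lower in apex than base and 0 were higher, against 11.3% and 10.7% of all genes, with a median log2 fold change of −0.32. The DEGs were C7, a component of the membrane attack complex, SERPING1, the inhibitor of the C1 complex, and C3AR1, the receptor of the fragment C3a. C7 averaged 23.0, 17.9 and 41.6 FPKM in apex, middle and base, with a log2 difference between apex and base of −0.83 (limma adjusted p = 0.011). SERPING1 averaged 41.3, 49.8 and 64.8 FPKM, with −0.65 (limma adjusted p = 0.0043), and C3AR1 averaged 3.91, 4.68 and 5.89 FPKM, with −0.49 (limma adjusted p = 0.013). Which cells of the pieces expressed C7, SERPING1 and C3AR1 was not tested. The most abundant were CD59, CFD and C1QBP, none of which passed without the block. With the block 6 of the 11 were lower, against 18.8% of all genes, CD59 (limma adjusted p = 0.0156) and C1S (0.0254) being added. C3, which lies on a sequence not assigned to a chromosome, and C8A were listed at 0 in every library. Whether these values mean that the genes were not expressed was not tested.

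Genes that act with CD74 in antigen presentation were also counted. Of 15 tested, 1 was lower in apex than base, CTSS, which cleaves the invariant chain, 0 were higher, against 11.3% and 10.7% of all genes, and the median log2 fold change was 0.06. With the block BF1 and RFX5, named after their values were seen, were higher (limma adjusted p = 0.0499 and 0.038), 2 of 15 against 17.8% of all genes. The most abundant of them, B2M and LGMN, averaged 163 and 87.6 FPKM in the apex, 151 and 94.7 FPKM in the middle and 150.0 and 88.1 FPKM in the base. CIITA, the regulator of MHC class II genes, stayed below the level required for testing.

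Among 10 other transcription factors of myeloid cells, 2 were lower and 1 was higher in apex than base, against 11.3% and 10.7% of all genes, with a median log2 fold change of −0.17. With the block RUNX1 was also lower (limma adjusted p = 0.0391), making 3 of 10 lower, against 18.8% of all genes. MAF averaged 30.9, 40.3 and 54.3 FPKM in apex, middle and base (log2 difference −0.80, limma adjusted p = 0.0045) and FLI1, which endothelium also expresses, averaged 29.9, 35.2 and 49.6 FPKM (−0.71, limma adjusted p = 0.0026). SALL1, known from mammals in microglia and also in other cell types, averaged 58.5, 54.2 and 29.5 FPKM and was higher in the apex (0.98, limma adjusted p = 0.024). Which cells of the pieces expressed MAF, FLI1 and SALL1 was not tested. The pan-leukocyte list beside PTPRC had 17 tested genes, of which 4 were lower (HCLS1, LAPTM5, ARHGDIB and INPP5D, of which INPP5D was named after its values were seen), 0 were higher, against 11.3% and 10.7% of all genes, and the median was −0.16. CYBA, among the most abundant of that list, averaged 72.9, 64.7 and 64.9 FPKM in apex, middle and base and did not pass (limma adjusted p = 0.261). With the block LYN, also named after its values were seen, was higher in the apex (limma adjusted p = 0.00168), 1 of 17 against 17.8% of all genes.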

How the data were processed

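RNA enriched with oligo-dT was sequenced as 101-bp paired-end reads. Alignment by the authors was with STAR (2.5.4b) on galGal5 with an Ensembl annotation, and Cuffdiff (2.2.1) gave the deposited FPKM, 1 value for each gene in each library. Fragment counts and counting intervals are therefore not given, and any scaling between libraries by Cuffdiff is not given in the sources used here. FPKM were analysed as log2(FPKM + 1) by limma 3.58.1 (R 4.3.3) with a term for region over 9 libraries, moderated variances with an intensity trend, two-sided tests and Benjamini-Hochberg adjustment over 13045 genes. A fold change on this scale understates the change of a low gene. A DEG needed a mean FPKM at least 1.5-fold apart beside an adjusted p under 0.05. Libraries were grouped by their titles.

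Replicate numbers in the titles were used to pair the libraries. Residuals of same-numbered libraries correlated at 0.368 to 0.660 in all 9 pairs, and those of other pairs at −0.520 to 0.151. These residuals are deviations from region means of 3 libraries and cancel within a region, so that the ranges are not independent of each other. That libraries of 1 number come from the same birds is implied by the methods but not stated. The study names no block, so the block is an alternative, and every SE and confidence interval given is from the fit without it. For apex versus base the block lowered the SE from 0.21 to 0.0905 for PTPRC and from 0.19 to 0.0851 for CD74. Limma adjusted p with the block was 0.521 for PTPRC and 0.109 for CD74.

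The 7 genes and the gene lists were chosen with earlier results of these data known. Named beside the 7 were DEGs of the lists (at most 4 of each), genes among the 3 most abundant and the 8 genes most like the 7. This was not done for every list, and any other gene was named after its values were seen. The hair cell, supporting cell, Schwann cell, fibroblast and neuron lists were given without gene names, and the endothelium list is not reported here. The other alternatives were a pseudocount of 0.1, other filters, quantile normalization, median-ratio scaling, no intensity trend, 6-library fits, other ratios and left-out libraries. The alternatives for IL34 and the macrophage list were added after seeing the data. The fit was tested on simulated data. Of 34 macrophage symbols 9 were not matched, and 1 tested gene of that list is counted but not reported here by name. No sequence was used here.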

Additional observations from a re-analysis of the deposited data

How the results depend on the processing

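Precision is limited by 3 libraries per region and by the absence of fragment counts. The apex to base difference of CSF1R kept its direction and its call under every alternative, with limma adjusted p up to 0.0325 when a replicate number was left out of all regions. Of the 7 genes, DEGs between apex and base numbered 0, and 0 to 1 in fits without 1 library or 1 replicate number, CSF1R being the gene added. Without the ratio criterion 2 passed between apex and base and 1 between middle and base. With the replicate block 2 passed for any region difference, and 0 passed the order test. Fits with libraries left out gave 0 to 2 for any region difference and 0 to 3 for replicate number. CSF1R lost its call for any region difference without replicate 1 (limma adjusted p = 0.075) or replicate 3 (0.079). Beyond the calls given for C1QA, for C1QC, for CSF1R in the order test and for the lists, the block changed no other call of the 7 genes or IL34.

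Leaving out libraries turned the sign of differences that had not passed, in each case within a range across 0 on the log2 scale. For apex versus base PTPRC ranged from −0.26 to 0.0634. For middle versus base CD74 ranged from −0.23 to 0.12. For apex versus middle PTPRC ranged from −0.11 to 0.21, C1QB from −0.15 to 0.10, CD74 from −0.32 to 0.038 and SPI1 from −0.28 to 0.0905.

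Over all genes tested, DEGs between middle and base numbered 573, against 1288 with the block and 250 in the fit of 6 libraries, and those between apex and middle 8, against 275 and 0, and 13 without the intensity trend. Without the ratio criterion DEGs between apex and base were 2879 and between middle and base 1096, against 1541 and 573, and at a ratio of at least 2 they were 739 and 257. Any region difference gave 2099 genes, and 4490 with the block. The order test gave 1132 and, within replicate numbers, 0. Without 1 library the counts were 996 to 1685, 71 to 692 and 0 to 11 in the 3 comparisons, 761 to 2530 for any region and 545 to 3124 for replicate number, against 2438. Without a replicate number they were 623 to 1245, 0 to 120 and 0, then 0 to 914 and 322 to 1276. The cause of these shifts was not tested.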

Other observations

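Of other blood and immune cells, the T cell receptor component CD3E was higher in the apex, at 15.0, 13.8 and 8.20 FPKM in apex, middle and base (log2 difference between apex and base 0.81, limma adjusted p = 0.0083), while the T cell genes CD8A, LCK and ZAP70 averaged below 1 FPKM in each region. With CD3E, 1 of 5 tested T cell genes was higher and 0 were lower, against 10.7% and 11.3% of all genes. With the replicate block GATA3, which other cells also express, was higher too (limma adjusted p = 0.00173), making 2 of 5 tested T cell genes, against 17.8% of all genes. Of 4 tested B cell genes, EBF1, which other cells also express, was lower in the apex with the block (limma adjusted p = 0.00161) and missed the threshold without it (limma adjusted p = 0.102), and the other 3 passed in neither fit. With the block 1 of the 4 was lower, against 18.8% of all genes. Only 1 of the 4 had a negative log2 fold change between apex and base, against 51.1% of all genes, and their median was 0.05. Of 2 tested dendritic cell genes, ZBTB46 was lower in the apex, at 63.8, 69.0 and 76.3 FPKM in apex, middle and base (−0.25, limma adjusted p = 0.013). With 1 lower and 0 higher, these counts stood against 11.3% and 10.7% of all genes. The other tested gene had a positive log2 fold change that did not pass, and the median of the 2 was 0.11. XCR1 and FLT3 were close to 0. The summed dendritic cell list was 66.9, 71.0 and 78.3 FPKM in apex, middle and base, most of it from ZBTB46. Which cells of the pieces expressed ZBTB46 was not tested. Of 4 tested genes of the erythrocyte list, CA2, which other cells also express, was higher in the apex (0.99, limma adjusted p = 0.032), 1 of 4 against 10.7% of all genes. With the replicate block 4 of 4 were higher, HBAA, HBAD and EPB42 being added, against 17.8% of all genes. The summed erythrocyte level was 2390, 1142 and 9280 FPKM in apex replicates 1, 2 and 3, 2079, 841 and 3168 FPKM in the middle and 1082, 860 and 1834 FPKM in the base. Of 5 tested thrombocyte genes, 3 had a negative log2 fold change between apex and base, against 51.1% of all genes, and the median was −0.17. Of these 5, THBS1 was higher in the apex, at 51.5, 53.0 and 35.2 FPKM in apex, middle and base (0.55, limma adjusted p = 0.032), 1 of 5 against 10.7% of all genes. GP1BB had a log2 difference of −0.46 and was lower in the apex with the block (limma adjusted p = 0.0244), 1 of 5 against 18.8% of all genes. Which cells of the pieces expressed THBS1 and GP1BB was not tested. The T cell, B cell, dendritic cell and blood genes beyond the DEGs and the most abundant of each list were named after their values were seen.

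The 8 genes whose values followed the mean z-score of the 7 macrophage genes most closely over 9 libraries, among 9925 genes with a symbol, were SCAMP4 (r = 0.968), EEF1A1 (0.965), TPT1 (0.961), CACTIN (0.961), PDIA3 (0.958), DHRS13 (0.954), HMOX1 (0.952) and FUNDC2 (0.949). None of these 8 is on the macrophage list. HMOX1, the haem-degrading enzyme, averaged 19.0, 20.8 and 29.0 FPKM in apex, middle and base, while the translation factor EEF1A1 averaged 3339, 3464 and 3846 FPKM. The r of each of the 7 with the mean that contains it ranged from 0.431 for PTPRC to 0.949 for C1QC. The r values are given as a description, without a test.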
